A study of Homo sapiens with 9 samples.

Results

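The HOX cluster genes are 39 protein-coding genes in 4 groups, HOXA (11 genes), HOXB (10), HOXC (9) and HOXD (9). They were taken by symbol, the cluster letter followed by the paralog number, from the 19706 usable gene symbols of a deposited RNA-seq table, and genes near 0 were kept. The table describes polyadenylated RNA from untreated cells of 3 established human neuroblastoma lines, with 3 libraries per line and 9 in all. Kelly and BE(2)C are labelled MYCN-amplified and SH-SY5Y is not, so with 1 non-amplified line an effect of MYCN copy number and any other difference of that line cannot be told apart. Cells were harvested before full confluence, and no label says whether the 3 libraries of a line came from separate cultures; the p-values therefore rest on a spread among libraries that may be purely technical.

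HOX proteins are homeodomain transcription factors that give cells their position along the body axis. Within a cluster the genes are numbered by their order on the chromosome: low numbers (anterior) act in the hindbrain and upper trunk, middle numbers in the trunk, and high numbers (posterior) in the lower trunk, limbs and genitalia. Genes of the same number in different clusters are paralogs. Neuroblastoma arises from sympathoadrenal cells of the trunk neural crest, which carry a HOX pattern set by their axial level. HOX proteins bind DNA together with TALE cofactors of the PBX and MEIS families, their chromatin is held silent by Polycomb and active by Trithorax proteins, and retinoic acid turns the clusters on in embryos.

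On GRCh38 (GENCODE release 29) the HOXA genes from HOXA2 to HOXA13 lie on chromosome 7 between 27100354 and 27200106 and the HOXB genes on chromosome 17 between 48528526 and 48729178, both on the minus strand. The HOXC genes lie on chromosome 12 between 53938765 and 54056030 and the HOXD genes on chromosome 2 between 176092891 and 176190907, both on the plus strand. Promoter windows from 250 bases before to 50 bases after a start were matched by symbol in a RefSeq table (GRCh38.p14) for 20 of the 39 genes, as 26 distinct windows. The windows below belong to members on which the results turn: HOXC4 and HOXC5, which are listed with 1 identical window at chr12:54016638-54016937 (+), HOXD13 at chr2:176092471-176092770 (+), whose RNA level set the 3 lines apart, and HOXD8 at chr2:176129455-176129754 (+), whose RNA was present in every library. They read 5′ to 3′ in lower case, and capitals mark motif matches on either strand. The motifs searched were CACGTG, the palindromic E-box bound by MYC-family proteins. The core promoter element TATAAA and the GC-rich element GGGCGG, which Sp-family proteins bind, were searched as well, as were the nuclear receptor half-site AGGTCA and the HOX-PBX composite element TGATNNAT.
HOXC4 and HOXC5: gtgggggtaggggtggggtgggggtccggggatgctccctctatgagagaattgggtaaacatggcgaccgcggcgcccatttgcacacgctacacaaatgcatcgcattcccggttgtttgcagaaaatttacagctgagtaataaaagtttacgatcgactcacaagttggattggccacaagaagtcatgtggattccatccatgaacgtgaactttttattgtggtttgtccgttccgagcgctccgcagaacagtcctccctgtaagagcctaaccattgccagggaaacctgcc
HOXD13: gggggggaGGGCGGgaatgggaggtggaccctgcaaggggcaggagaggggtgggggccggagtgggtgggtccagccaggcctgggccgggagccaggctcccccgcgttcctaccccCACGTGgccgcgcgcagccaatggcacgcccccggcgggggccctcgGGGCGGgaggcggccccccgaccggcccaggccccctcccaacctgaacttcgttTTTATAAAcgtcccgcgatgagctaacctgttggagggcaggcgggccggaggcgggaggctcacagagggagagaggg
HOXD8: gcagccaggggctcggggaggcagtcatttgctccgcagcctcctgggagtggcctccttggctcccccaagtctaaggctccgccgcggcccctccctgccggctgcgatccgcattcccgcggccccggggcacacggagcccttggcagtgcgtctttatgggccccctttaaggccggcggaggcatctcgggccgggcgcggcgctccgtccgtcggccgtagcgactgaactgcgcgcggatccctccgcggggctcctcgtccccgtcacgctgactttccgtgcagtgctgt
The HOXD13 window holds 1 CACGTG, with its first base at position -131 from the start, 2 TATAAA matches that overlap on opposite strands at -29 and -27, and 2 GGGCGG at -242 and -84; among 35116 RefSeq promoter windows of the same length 7.26% hold CACGTG, 11.5% TATAAA and 45% GGGCGG. The HOXC4 and HOXC5 window and the HOXD8 window hold none of these, nor AGGTCA (13.8% of windows) or TGATNNAT (7.4%). HOXD13 and HOXD8 are rich in CG dinucleotides, with 24 and 34 per window against a median of 14 over all windows and 15 in the HOXC4 and HOXC5 window. CACGTG is not particular to HOXD13. It also lies in the windows of HOXD1, HOXD3, HOXD10 and HOXD11, but not in those of HOXD4, HOXD8 and HOXD12. Windows of HOXA3, HOXA4, HOXA7 and HOXA9, whose RNA was listed at 0, hold it as well. A match is only a run of letters and was not tested as a binding site.

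The HOX RNA listed in the table came from the HOXC and HOXD clusters, apart from the traces named here. All 9 HOXC and all 9 HOXD genes had a value above 0 in at least 1 library, whereas all 10 HOXB genes, and the HOXA genes from HOXA3 to HOXA10 with HOXA13, were listed at 0 in all 9 libraries. Traces were listed for HOXA2, at 0.0668 in Kelly 3, and HOXA11, at 0.114 in BE(2)C 2, with 0 in the other libraries. These values are scaled TPM, that is TPM (transcript abundance per length and library) rescaled to the total of genes without spike-ins and adjusted by a trimmed-mean factor. A mean of 1 or more was reached in some line by 14 genes, 7 HOXC and 7 HOXD: 12 of them in Kelly, against 14 in BE(2)C and 10 in SH-SY5Y.

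The HOXB genes form the larger run of zeros. Between HOXB1 and HOXB13, 12 neighbouring genes of the table were at 0 in every library, the 10 HOXB genes with PRAC1 and PRAC2, small genes beside HOXB13. In the HOXA cluster a run of 7, HOXA3 to HOXA10, was at 0, and HOXA13 was at 0 as well. Zeros were common in the table, where 2545 of the 19706 genes (12.9%) were at 0 throughout; of 1189 such runs of neighbours, 17 were at least as long as the HOXB run and 44 at least as long as the HOXA run. Some genes in wide use among cells were listed at or near 0 too. RPS18, a ribosomal protein gene, ran from 0 to 0.916 in scaled TPM, and RING1, a Polycomb ubiquitin ligase, was 0 in 6 libraries and 0.109 to 0.14 in SH-SY5Y. Both lie near each other on chromosome 6, starting at 33272010 and 33208495, so they may not stand for genes elsewhere. Whether a HOXA or HOXB value of 0 is absent RNA or a failed estimate was not tested. No depth is known, so no upper limit can be given for these zeros.

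Some genes flanking the clusters listed at 0 had RNA in all lines. Beside the HOXB cluster CBX1, which encodes a heterochromatin protein, stood at 399 ± 14.1 scaled TPM in Kelly (SD, n = 3), against 217 ± 5.60 in BE(2)C and 553 ± 14.5 in SH-SY5Y. UBE2Z, a ubiquitin-conjugating enzyme gene on the other side of that cluster, stood in that order at 100 ± 4.14, 83.4 ± 6.02 and 139 ± 4.55. Beside the HOXA cluster HIBADH, a valine-breakdown enzyme gene, stood at 34.2 ± 2.58, 21.0 ± 4.27 and 38.0 ± 2.02. Other flanking genes had little: SKAP2, on the other side of HOXA, had a mean of 0.308 in Kelly, against 0.532 in BE(2)C and 3.06 in SH-SY5Y, SNX10 was listed at 0 in BE(2)C and SKAP1 at 0 in SH-SY5Y. EVX1, the homeobox gene next to HOXA13, was 0 in all 9 libraries. EVX2, the homeobox gene next to HOXD13, was 1.18, 0.190 and 0.330 in the 3 Kelly libraries, 0.108, 0.187 and 0.152 in BE(2)C and 0 in SH-SY5Y.

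Genes made up 9.34% to 16.2% of the back-transformed total of each library, and synthetic spike-in RNAs 83.7% to 90.6%. Kelly had the lowest gene share, 9.34% to 11.0%, against 13.2% to 15.5% in BE(2)C and 15.3% to 16.2% in SH-SY5Y. Its part in the Kelly differences was not tested.

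**Figure D1:**
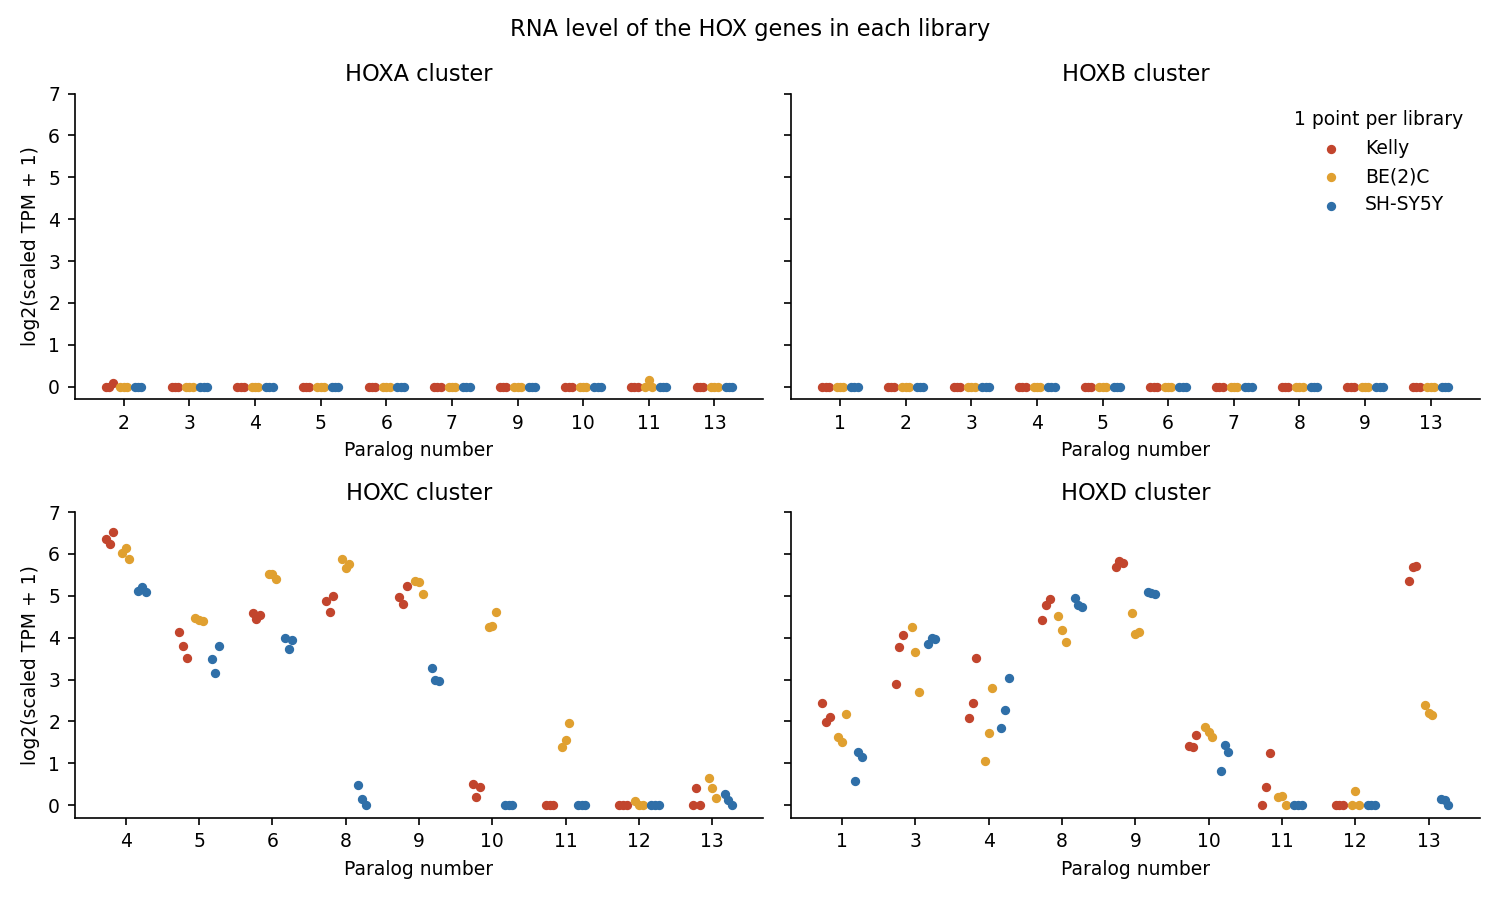
Level of each HOX gene on the vertical axis, as log2(scaled TPM + 1), by paralog number on the horizontal axis, with 1 panel per cluster (1 HOXA gene is not shown) and 1 point per library, coloured by line. Points of HOXA and HOXB lie at or near 0. HOXD13 separates the 3 lines, HOXC8 is near 0 in SH-SY5Y, and HOXC10 is under 1 scaled TPM outside BE(2)C.

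On scaled TPM, HOXC RNA was highest in BE(2)C. Summed over its 9 genes the cluster reached 248, 244 and 231 scaled TPM in the BE(2)C libraries, 180, 159 and 191 in Kelly and 68.3, 63.3 and 67.0 in SH-SY5Y. No 2 lines overlapped. HOXD RNA was highest in Kelly, with sums of 127, 156 and 168 scaled TPM, against 73.2, 55.4 and 51.1 in BE(2)C and 79.9, 81.3 and 81.9 in SH-SY5Y, again without overlap. The sum over both clusters was 327 ± 28.2 in Kelly (SD, n = 3), against 301 ± 19.6 in BE(2)C and 147 ± 2.29 in SH-SY5Y. HOXC made up 54.1 ± 4.11% of the summed HOXC and HOXD values in Kelly, against 80.2 ± 2.60% in BE(2)C and 45.0 ± 1.15% in SH-SY5Y. The cluster sums were not tested and were taken on scaled TPM only. Some gene differences behind them moved with the scaling, as given below.

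By paralog group, the anterior genes (numbers 1 to 3) held a similar small sum in each line, 15.3 ± 4.21 scaled TPM in Kelly (SD, n = 3), against 14.3 ± 5.65 in BE(2)C and 15.4 ± 1.32 in SH-SY5Y. The middle genes (4 to 8) carried the largest sum in every line, 176 ± 15.9, 202 ± 9.37 and 90.5 ± 3.26. The posterior genes (9 to 13) differed most in proportion, with 135 ± 11.4 in Kelly, against 84.3 ± 5.16 in BE(2)C and 41.3 ± 1.30 in SH-SY5Y. These sums were not tested.

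**Figure D2:**
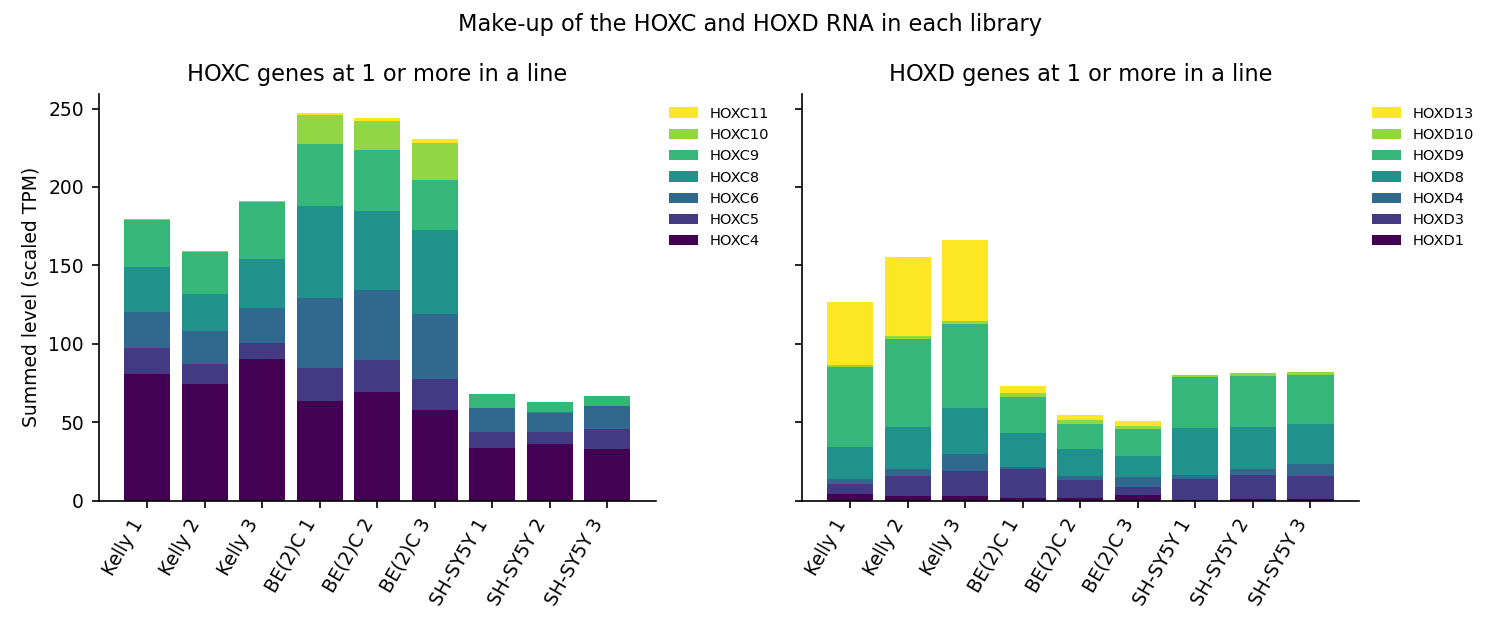
Summed level in scaled TPM (vertical axis, from 0) of the HOXC genes (left) and HOXD genes (right) with a mean of 1 or more in a line, stacked by gene, with 1 bar per library. HOXC bars are tallest in BE(2)C (231 to 248) and HOXD bars in Kelly, where HOXD13 is the uppermost block.

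HOXC4 had the highest mean level of the HOX genes in each line, although in BE(2)C its libraries overlapped those of HOXC8. HOXC4 (chromosome 12, 54016931 to 54056030, across HOXC5), the lowest-numbered gene of its cluster, acts at cervical and upper thoracic levels. It stood at 80.8, 74.5 and 90.3 scaled TPM in Kelly, against 63.6, 69.1 and 57.6 in BE(2)C and 33.9, 36.0 and 32.9 in SH-SY5Y. The lines did not overlap, in the order Kelly, BE(2)C, SH-SY5Y. The log2 difference was 1.23 ± 0.10 (SE) for Kelly vs SH-SY5Y (adjusted p = 6.68e-06), 0.87 ± 0.10 for BE(2)C vs SH-SY5Y (5.7e-05) and 0.36 ± 0.10 for Kelly vs BE(2)C (0.012), each on the log2(scaled TPM + 1) scale with limma's trend method. HOXC4 ranked above 87.0% of the genes with any RNA in Kelly, against 83.0% in BE(2)C and 71.6% in SH-SY5Y.

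HOXC5 (54032853 to 54035358) was lower and more variable. Its levels were 16.7, 13.0 and 10.4 scaled TPM in Kelly, against 21.3, 20.6 and 20.2 in BE(2)C and 10.2, 7.94 and 13.0 in SH-SY5Y. BE(2)C stood above both other lines, while Kelly and SH-SY5Y overlapped. The log2 difference of BE(2)C vs SH-SY5Y was 0.95 ± 0.21 (adjusted p = 0.00316) and that of Kelly vs BE(2)C -0.62 ± 0.21 (0.0312). Kelly vs SH-SY5Y gave 0.34 ± 0.21 (0.196), which did not pass. HOXC4, HOXC5 and HOXC6 share annotated exon bases (305 for HOXC4 with HOXC5, 484 for HOXC4 with HOXC6, 305 for HOXC5 with HOXC6), so the split of reads among them is uncertain.

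HOXC6 (53990624 to 54030823), a thoracic gene, was highest in BE(2)C. It stood at 44.6, 44.9 and 41.1 scaled TPM there, 23.1, 20.8 and 22.4 in Kelly and 14.9, 12.3 and 14.3 in SH-SY5Y. The 3 lines did not overlap. Tested, the log2 difference was 1.59 ± 0.11 for BE(2)C vs SH-SY5Y (adjusted p = 2.18e-06), 0.64 ± 0.11 for Kelly vs SH-SY5Y (0.000857) and -0.95 ± 0.11 for Kelly vs BE(2)C (8.34e-05).

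HOXC8 (54009106 to 54012362), a gene of thoracic identity and of motor neuron patterning, was near 0 in SH-SY5Y. It was 0.395, 0.107 and 0 scaled TPM in the SH-SY5Y libraries, against 28.2, 23.4 and 30.9 in Kelly and 58.1, 50.1 and 53.5 in BE(2)C. Its immediate neighbours in number, HOXC6 and HOXC9, kept RNA in all 3 lines. By limma the log2 difference was 5.57 ± 0.17 for BE(2)C vs SH-SY5Y (adjusted p = 2.45e-08), 4.62 ± 0.17 for Kelly vs SH-SY5Y (6.81e-08) and -0.95 ± 0.17 for Kelly vs BE(2)C (0.0015). On the log2(scaled TPM + 1) scale these understate a change against values this low. HOXC8 made up 22.4% of HOXC RNA in BE(2)C, 15.5% in Kelly and 0 to 0.579% in SH-SY5Y.

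HOXC9 (53994895 to 54003337), which marks lower thoracic levels, was similar in the MYCN-amplified lines. The libraries held 30.3, 27.1 and 36.7 scaled TPM in Kelly, against 39.9, 38.9 and 31.9 in BE(2)C and 8.71, 6.92 and 6.80 in SH-SY5Y. Kelly and BE(2)C overlapped, and both stood above SH-SY5Y. Its log2 difference was 2.16 ± 0.16 for BE(2)C vs SH-SY5Y (adjusted p = 3.05e-06), 1.93 ± 0.16 for Kelly vs SH-SY5Y (7.13e-06) and -0.23 ± 0.16 for Kelly vs BE(2)C (0.24).

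HOXC10 (53985065 to 53990279), a gene of lumbar level and hindlimb, was high in BE(2)C and under 1 in the other lines. It was 18.1, 18.5 and 23.5 scaled TPM in BE(2)C, 0.427, 0.138 and 0.359 in Kelly and listed at 0 in the 3 SH-SY5Y libraries. The log2 difference of Kelly vs BE(2)C was -4.00 ± 0.17, and no fold is given against SH-SY5Y. HOXC11 (53973126 to 53977643), next in order, was 1.61, 1.92 and 2.93 in BE(2)C and listed at 0 in Kelly and SH-SY5Y. Both genes passed the filter on low values through BE(2)C alone and had to differ from the other lines, so their values are a description and no p is given. HOXC12 had RNA only in BE(2)C 1 (0.0683 scaled TPM), and HOXC13, at the posterior end, stayed between 0 and 0.564 in the 9 libraries.

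The HOXD genes began with low levels at the anterior end. HOXD1 (176188579 to 176190907), the most anterior member, was 4.40, 2.97 and 3.28 scaled TPM in Kelly, against 2.07, 1.85 and 3.55 in BE(2)C and 0.504, 1.43 and 1.23 in SH-SY5Y. SH-SY5Y stood below both other lines, which overlapped. The log2 difference was 1.16 ± 0.26 for Kelly vs SH-SY5Y (adjusted p = 0.00408), 0.76 ± 0.26 for BE(2)C vs SH-SY5Y (0.0294) and 0.40 ± 0.26 for Kelly vs BE(2)C (0.225).

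HOXD3 and HOXD4, hindbrain and cervical genes, did not pass in any comparison of scaled TPM fitted without a block. HOXD3 (176136612 to 176173102) stood at 6.42, 12.8 and 15.8 scaled TPM in Kelly, against 18.2, 11.7 and 5.48 in BE(2)C and 13.4, 14.9 and 14.7 in SH-SY5Y. HOXD4 (176151222 to 176153226), which lies inside the span of HOXD3 without a shared exon base, stood at 3.21, 4.47 and 10.5 in Kelly, against 1.09, 2.32 and 5.91 in BE(2)C and 2.62, 3.80 and 7.26 in SH-SY5Y. The lines overlapped in both genes, and library 3 held the highest HOXD4 value of each line. The log2 differences ran from -0.39 to 0.04 for HOXD3 (SE 0.40) and from -0.53 to 0.82 for HOXD4 (SE 0.52), with adjusted p-values from 0.215 to 0.941. Summed, both genes gave 9.63, 17.3 and 26.3 in Kelly, against 19.3, 14.0 and 11.4 in BE(2)C and 16.0, 18.7 and 21.9 in SH-SY5Y.

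HOXD8 (176129694 to 176132695), a trunk gene, was present in every library. Its levels were 20.3, 26.7 and 29.5 scaled TPM in Kelly, against 21.9, 17.2 and 13.9 in BE(2)C and 29.8, 26.7 and 25.5 in SH-SY5Y. SH-SY5Y stood above BE(2)C, and Kelly overlapped both. Tested, the log2 difference was -0.62 ± 0.18 for BE(2)C vs SH-SY5Y (adjusted p = 0.0164), -0.11 ± 0.18 for Kelly vs SH-SY5Y (0.636) and 0.51 ± 0.18 for Kelly vs BE(2)C (0.0434). The last call did not hold without replicate 3 of Kelly or of BE(2)C, among other settings that gave adjusted p-values from 0.0574 to 0.257. The BE(2)C vs SH-SY5Y call did not hold without replicate 3 of BE(2)C (0.0545) or replicate 1 of SH-SY5Y (0.0579).

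HOXD9 (176122720 to 176124937), a posterior gene of limb and lower trunk, had the highest mean of the HOXD genes in each line. Its libraries overlapped those of HOXD13 in Kelly, and those of HOXD8 and HOXD3 in BE(2)C. It stood at 50.8, 56.3 and 53.6 scaled TPM in Kelly, against 23.0, 15.9 and 16.7 in BE(2)C and 32.8, 32.6 and 31.7 in SH-SY5Y. The 3 lines did not overlap, in the order Kelly, SH-SY5Y, BE(2)C, whereas its paralog HOXC9 was lowest in SH-SY5Y. By limma the log2 difference was 1.50 ± 0.13 for Kelly vs BE(2)C (adjusted p = 1.63e-05), 0.71 ± 0.13 for Kelly vs SH-SY5Y (0.00155) and -0.79 ± 0.13 for BE(2)C vs SH-SY5Y (0.00071).

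HOXD10 (176108790 to 176119942), a lumbar gene, was low in all lines. Its levels were 1.66, 1.61 and 2.21 scaled TPM in Kelly, against 2.63, 2.37 and 2.08 in BE(2)C and 0.751, 1.73 and 1.41 in SH-SY5Y. The log2 difference of BE(2)C vs SH-SY5Y, 0.57 ± 0.20, passed (adjusted p = 0.0358), while the other comparisons did not (0.214 and 0.326). That call did not hold without replicate 1 or 2 of BE(2)C, or replicate 1 or 3 of SH-SY5Y, where the adjusted p ran from 0.0587 to 0.128, nor with a pseudocount of 0.1 (0.0539). HOXD11, which shares 452 exon bases with HOXD10, was 9.79e-05, 0.348 and 1.36 in Kelly, against 0.149, 0.171 and 0 in BE(2)C and 0 in SH-SY5Y. HOXD12 had RNA only in BE(2)C 2 (0.267).

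HOXD13 (176092891 to 176095938), the most posterior gene of the cluster, acts in the development of digits and genitalia. It stood at 39.9, 50.6 and 51.6 scaled TPM in Kelly, against 4.27, 3.62 and 3.42 in BE(2)C and 0.111, 0.0901 and 0 in SH-SY5Y. The 3 lines were far apart, and in Kelly the gene was separated from HOXD9 by 3 genes with little RNA, HOXD10 to HOXD12. Its log2 difference was 5.49 ± 0.17 for Kelly vs SH-SY5Y (adjusted p = 2.61e-08), 3.34 ± 0.17 for Kelly vs BE(2)C (6.44e-07) and 2.16 ± 0.17 for BE(2)C vs SH-SY5Y (5.56e-06). HOXD13 supplied 31.6 ± 0.865% of HOXD RNA in Kelly (SD, n = 3), against 6.35 ± 0.458% in BE(2)C and 0 to 0.139% in SH-SY5Y. It ranked above 77.6% of the genes with any RNA in Kelly, against 36.1% in BE(2)C and 6.51% in SH-SY5Y. Its paralogs HOXA13 and HOXB13 were at 0, and HOXC13 was under 1 in every library.

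BE(2)C vs SH-SY5Y compares a MYCN-amplified line with the non-amplified one. Of the 14 tested HOX genes, 10 were higher in BE(2)C, among them all 7 tested HOXC genes with HOXD1, HOXD10 and HOXD13, and 2 were lower, HOXD8 and HOXD9. The share of all tested genes called was 59.4% (28.6% higher and 30.7% lower), against 12 of 14 here. Without HOXC10 and HOXC11, which had to differ, 8 of 12 were higher and 2 lower. The median log2 difference was 1.59 over the 5 remaining HOXC genes and -0.39 over the HOXD genes, against -0.04 over all 13076 genes tested. Scaling moved the genes as a whole: 48.2% of all calls were higher in BE(2)C, but 23.6% with library totals only (median of all genes -0.44) and 18.9% on values as deposited (-0.35). On values as deposited 6 HOX genes were higher rather than 10, and the calls of HOXC4 (log2 difference 0.27, adjusted p = 0.104), HOXC5 (0.30, 0.0686), HOXD1 (0.12, 0.191) and HOXD10 (0.06, 0.483) were lost. HOXC8 (2.83), HOXC9 (1.21), HOXC6 (0.84) and HOXD13 (0.51) passed there with smaller differences. Genes hold 9.34% to 16.2% of each deposited total, so their deposited values are smaller than scaled TPM. The pseudocount of 1 therefore shrinks log2 differences more on values as deposited. How many of the lost calls this accounts for was not tested. With library totals only the calls of HOXC5 (0.52, 0.0524), HOXD1 (0.49, 0.14) and HOXD10 (0.28, 0.294) were lost. HOXD1 was also lost without replicate 3 of BE(2)C (0.56, 0.0986) or replicate 1 of SH-SY5Y (0.55, 0.108).

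Kelly vs SH-SY5Y compares the other amplified line with SH-SY5Y. Higher in Kelly were 7 of the 14 HOX genes, HOXC4, HOXC6, HOXC8, HOXC9, HOXD1, HOXD9 and HOXD13, and 0 were lower by limma, also at an unadjusted p under 0.05; over all genes 55.3% were called (28.1% higher and 27.2% lower). Without HOXC10 and HOXC11 the median log2 difference was 1.23 over HOXC and 0.32 over HOXD, against 0.00 over all genes. Of all calls 50.8% were higher in Kelly, but 41.5% with library totals only (median of all genes -0.13) and 15.1% on values as deposited (-0.43). On values as deposited HOXC6 turned to -0.03 (adjusted p = 0.853) and HOXD9 to 0.01 (0.958), while HOXD3 (-0.65, 0.0476) and HOXD8 (-0.64, 0.0109) passed as lower. HOXC8 (1.93), HOXC9 (0.91), HOXD13 (2.57), HOXC4 (0.47) and HOXD1 (0.21) passed there with smaller differences. Synthetic spike-in RNAs, which should not vary with the line, differed by up to 1.38 in log2 between Kelly and SH-SY5Y libraries, 1.20 between Kelly and BE(2)C and 0.18 between BE(2)C and SH-SY5Y. Each is the largest difference among 61 spike-ins, on values as deposited with each library centred on its spike-in median. Such an extreme is not the error of a given gene, and a difference beyond it may still be technical. On scaled TPM the Kelly differences of HOXC4, HOXC6, HOXD1 and HOXD9 against SH-SY5Y lie within 1.38. They cannot be told apart from a technical difference between the libraries. Those of HOXC8, HOXC9 and HOXD13 exceed 1.38 on scaled TPM. On values as deposited HOXC9 (0.91) also lies within it, while HOXC8 (1.93) and HOXD13 (2.57) exceed it. There the pseudocount shrinks the HOXC9 difference more than those of the more abundant spike-ins, so these are unlike measures. Both comparisons use the same SH-SY5Y libraries, so their differences are not independent.

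Kelly vs BE(2)C compares the MYCN-amplified lines with each other. Of the 14 tested genes 4 were higher in Kelly, HOXC4, HOXD8, HOXD9 and HOXD13, and 5 were lower, HOXC5, HOXC6, HOXC8, HOXC10 and HOXC11; over all genes 52.5% were called (27.9% higher and 24.6% lower). Without HOXC10 and HOXC11, which had to differ, 4 of 12 were higher and 3 lower. The clusters then had medians of opposite sign, -0.62 over the HOXC genes and 0.51 over the HOXD genes, against 0.02 over all genes. Of all calls 53.2% were higher in Kelly, but 74.3% with library totals only (median of all genes 0.31) and 43.2% on values as deposited (-0.05). HOXD13 (2.06) passed on values as deposited with a smaller difference, and HOXC10, which had to differ, stood at -1.69 there. HOXC4 (log2 difference 0.20, adjusted p = 0.254) and HOXD8 (0.28, 0.257) lost their call on those values, and HOXC5 lost it with library totals only (-0.31, 0.24), without a filter (0.0604) and in the fits that left out Kelly 2, Kelly 3 or any of the BE(2)C libraries (0.0614 to 0.104). On scaled TPM the differences of HOXC4, HOXC5, HOXC6, HOXC8 and HOXD8 lie within the largest spike-in difference between Kelly and BE(2)C libraries. They cannot be told apart from a technical one. The differences of HOXD9 and HOXD13 exceed that size. HOXC10 and HOXC11 had to differ and are not set against it.

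**Figure D3:**
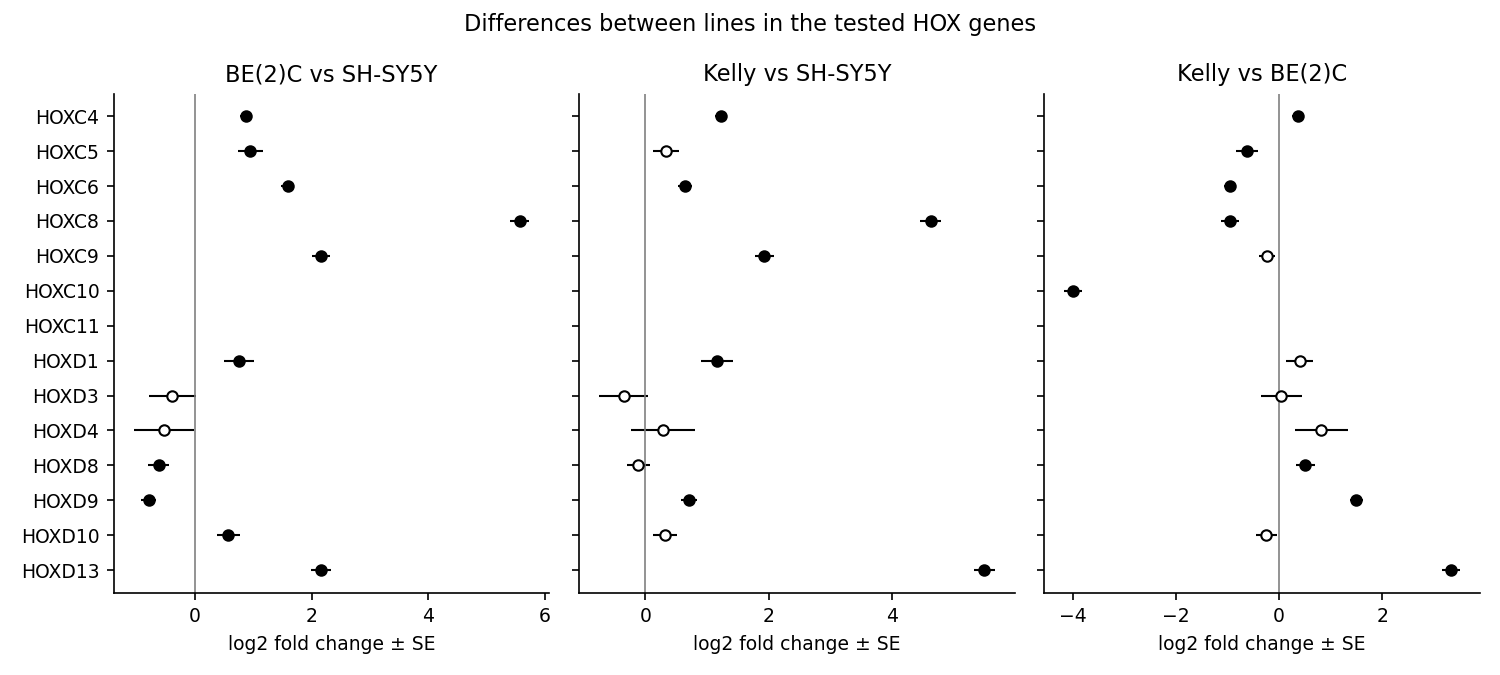
Difference between lines for each tested HOX gene (vertical axis), as the log2 fold change on the log2(scaled TPM + 1) scale (horizontal axis) with its standard error as a bar; filled points have an adjusted p under 0.05. HOXC8 and HOXD13 reach 5.57 and 5.49 against SH-SY5Y, and no point is drawn where a line is listed at 0. HOXC10 lies at -4.00 in Kelly vs BE(2)C. It passed the filter through BE(2)C alone and had to differ, so its filled point is a description.

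The TALE cofactors, the DNA-binding partners of HOX proteins, included MEIS2, which was higher in SH-SY5Y. Its levels were 123 ± 4.08 scaled TPM in SH-SY5Y (SD, n = 3), 27.8 ± 1.73 in BE(2)C and 37.1 ± 3.63 in Kelly, with log2 differences of -2.10 ± 0.09 for BE(2)C vs SH-SY5Y (adjusted p = 1.29e-07) and -1.70 ± 0.09 for Kelly vs SH-SY5Y (5.09e-07). SH-SY5Y held the most, and the lines did not overlap between SH-SY5Y and the other two. PBX3 was lower in Kelly (20.8 ± 3.52) than in SH-SY5Y (34.5 ± 1.65; -0.72 ± 0.13, 0.00137) and BE(2)C (35.1 ± 2.41; -0.74 ± 0.13, 0.00122; adjusted p = 0.051 with library totals only). MEIS1 in Kelly vs SH-SY5Y gave 0.53 ± 0.13 (0.00714), but -0.09 (0.483) on values as deposited. TGIF1, a TALE repressor, was higher in Kelly than in BE(2)C (1.66 ± 0.36, 0.00353).

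Of the 11 TALE genes 9 were tested. In BE(2)C vs SH-SY5Y 0 were higher (0 at an unadjusted p under 0.05 by limma) and 3 lower, in Kelly vs SH-SY5Y 3 and 3, and in Kelly vs BE(2)C 4 and 1, with medians of -0.11, 0.42 and 0.40. With library totals only these counts became 0 and 6, 0 and 3, and 6 and 0, and the medians kept their sign. As deposited, the values gave 0 and 8, 0 and 3, and 3 and 1, and the median of Kelly vs SH-SY5Y turned to -0.24, while the others stayed at -0.51 and 0.18. These counts and those of the lists below stand beside the same shares called over all genes. In Kelly vs SH-SY5Y 51 of the 66 called genes of all lists differed on scaled TPM by no more than the largest spike-in difference, 1.38. In Kelly vs BE(2)C 52 of 65 differed by no more than 1.20. These cannot be told apart from a technical difference. Among them are the Kelly differences of PBX3, MEIS1, PHF19, CBX2, EZH1, SMUG1, KIAA1715 and TAX1BP1, and that of KMT2A against SH-SY5Y. The same holds for KDM6B, STRA6 and RARA against BE(2)C, and for SETD1A and MLLT3 against SH-SY5Y. In BE(2)C vs SH-SY5Y the 72 called genes all differed by more than 0.18. Scaling alone moved the median of all genes there from -0.04 to -0.44, with library totals only. The 72 are therefore not set apart from a technical difference.

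Among Polycomb genes, whose products keep HOX clusters silent, CBX6, a chromodomain subunit, was higher in both amplified lines. It stood at 149 ± 9.26 scaled TPM in BE(2)C (SD, n = 3), 114 ± 6.75 in Kelly and 26.4 ± 0.517 in SH-SY5Y (log2 difference 2.45 ± 0.07, adjusted p = 1.98e-08, and 2.06 ± 0.07, 5.09e-08). PHF19, an accessory subunit that reads methylated histone H3, was higher in both as well, by 1.24 ± 0.12 in BE(2)C (1.89e-05) and 1.26 ± 0.12 in Kelly (1.9e-05) relative to SH-SY5Y. PCGF6, a RING-finger subunit, was higher in BE(2)C (1.60 ± 0.31, 0.0016) and Kelly (1.39 ± 0.31, 0.00406; 0.52, 0.103 on values as deposited). PHC1, a polyhomeotic subunit, was lower in BE(2)C than in SH-SY5Y (-1.24 ± 0.14, 5.69e-05) and Kelly (Kelly vs BE(2)C 1.31 ± 0.14, 5.46e-05). CBX2 and EZH1, a chromodomain subunit and a histone methyltransferase, were higher in Kelly than in BE(2)C (1.15 ± 0.06, 7.44e-07, and 0.97 ± 0.20, 0.0033).

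Of 30 Polycomb genes 29 were tested. The numbers higher and lower were 7 and 9 in BE(2)C vs SH-SY5Y, 11 and 2 in Kelly vs SH-SY5Y and 14 and 3 in Kelly vs BE(2)C, with medians of -0.11, 0.19 and 0.42. On values as deposited they were 3 and 18, 2 and 14, and 12 and 4, so the direction of Kelly vs SH-SY5Y turned there. With library totals only that comparison gave 10 and 3. BE(2)C vs SH-SY5Y had more genes lower than higher both on scaled TPM and as deposited, though by different margins.

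Of the 20 Trithorax and H3K27 demethylase genes, which keep HOX genes active, KMT2A, the methyltransferase best known for sustaining HOX expression, was lowest in Kelly. It stood at 28.7 ± 1.90 scaled TPM in Kelly (SD, n = 3), against 75.9 ± 5.68 in BE(2)C and 55.5 ± 1.84 in SH-SY5Y, with log2 differences of -1.37 ± 0.09 against BE(2)C (adjusted p = 1.99e-06) and -0.93 ± 0.09 against SH-SY5Y (1.82e-05). MLLT1 and MLLT3, YEATS-domain elongation proteins, and CXXC1, a CpG-binding subunit, were lower in BE(2)C than in SH-SY5Y (-0.94 ± 0.06, 9.66e-07; -1.26 ± 0.25, 0.00215; -1.68 ± 0.21, 0.000125). CXXC1 and KDM6B, a demethylase that removes the Polycomb mark, were higher in Kelly than in BE(2)C (1.40 ± 0.21, 0.000513, and 0.92 ± 0.12, 0.000176). In Kelly vs SH-SY5Y, MLLT3 was lower (-0.67 ± 0.25, 0.0488; 0.0564 with quantile normalization), and SETD1A, another methyltransferase, gave 0.66 ± 0.10 (0.000374) but -0.03 (0.821) on values as deposited. All 20 were tested, with 5 higher and 6 lower in BE(2)C vs SH-SY5Y, 7 and 4 in Kelly vs SH-SY5Y and 7 and 2 in Kelly vs BE(2)C. On values as deposited the counts were 0 and 11, 0 and 13, and 2 and 2. The medians were 0.06, 0.02 and 0.17.

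In the retinoic acid list CRABP1, a retinoic acid-binding protein gene, was high in the amplified lines. It stood at 286 ± 28.1 scaled TPM in BE(2)C (SD, n = 3), 227 ± 13.4 in Kelly and 62.4 ± 2.65 in SH-SY5Y (log2 difference 2.17 ± 0.08, adjusted p = 7.06e-08, and 1.85 ± 0.08, 1.92e-07). STRA6, a retinol uptake receptor gene, was higher in BE(2)C relative to SH-SY5Y (1.92 ± 0.15, 4.18e-06) and Kelly (Kelly vs BE(2)C -0.93 ± 0.15, 0.000584). ALDH1A3, which makes retinoic acid, was lower in BE(2)C (-3.07 ± 0.29, 1.76e-05) and Kelly (-2.73 ± 0.29, 4.39e-05) than in SH-SY5Y, where it stood at 13.6 ± 1.62. RARA, a retinoic acid receptor gene, was higher in Kelly than in BE(2)C (0.53 ± 0.09, 0.00113). Of 18 genes 12 were tested, with 4 higher and 4 lower in BE(2)C vs SH-SY5Y, 6 and 3 in Kelly vs SH-SY5Y and 3 and 3 in Kelly vs BE(2)C. The medians were -0.19, 0.41 and -0.13, and on values as deposited the counts were 3 and 5, 3 and 5, and 2 and 3. CYP26B1, counted as higher in Kelly than in both other lines, passed the filter through Kelly alone and had to differ.

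**Figure D4:**
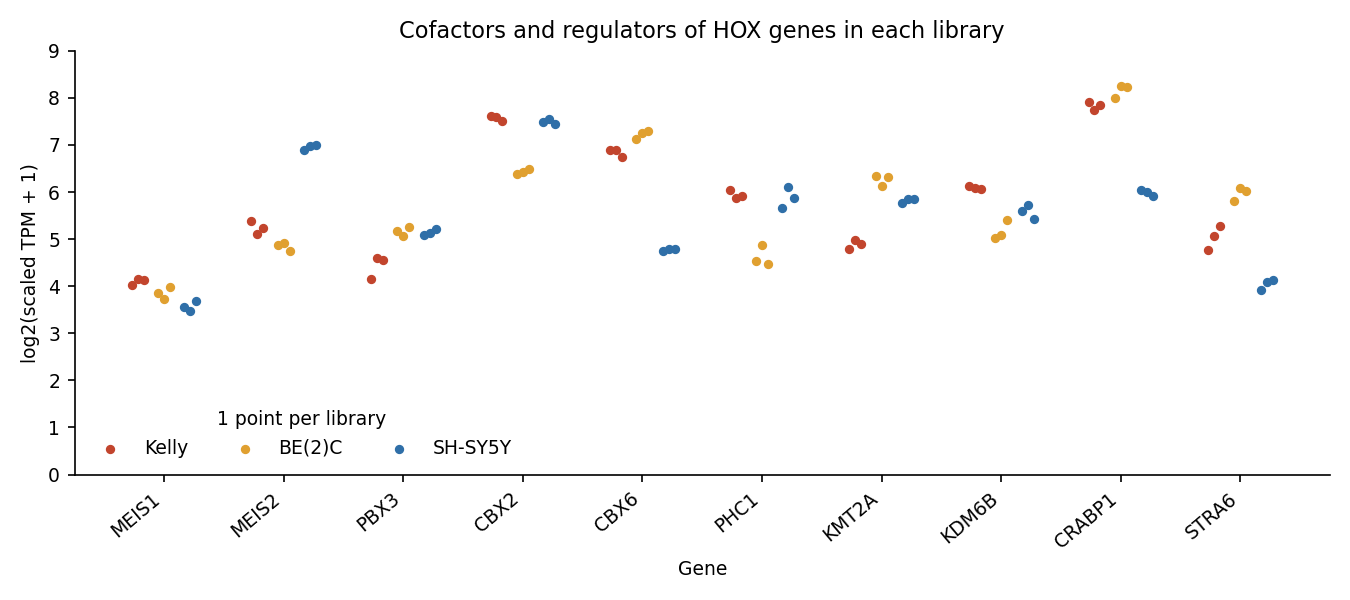
Level of 10 cofactors and regulators of HOX genes (horizontal axis) as log2(scaled TPM + 1) on the vertical axis, with 1 point per library, coloured by line. MEIS2 is highest in SH-SY5Y (123 against 27.8 and 37.1 scaled TPM), CBX6 and CRABP1 are lowest there, and KMT2A is lowest in Kelly.

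Other homeobox genes related to HOX had little RNA. Of 15 such genes outside the clusters 2 passed the filter. MNX1, a motor neuron factor, was 1.73 ± 0.113 scaled TPM in Kelly (SD, n = 3) and 1.69 ± 0.320 in BE(2)C but 0, 0.111 and 0 in SH-SY5Y (log2 difference 1.37 ± 0.15 for BE(2)C, adjusted p = 5.07e-05, and 1.40 ± 0.15 for Kelly, 5.26e-05). CDX1, an upstream activator of HOX genes in the embryo, was 1.11, 1.80 and 1.11 in SH-SY5Y, 0, 0.175 and 0.915 in BE(2)C and listed at 0 in Kelly. CDX2, GSX1, EVX1, EN1 and MEOX1 were at 0 in all 9 libraries. Of a list of 20 noncoding RNAs of the HOX clusters 0 were matched, and they are not analysed here.

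The genes flanking the clusters differed in both directions. On the HOXC side SMUG1, a DNA glycosylase gene, was lower in Kelly than in SH-SY5Y (log2 difference -0.83 ± 0.17, adjusted p = 0.00251), at 20.5 ± 1.64 and 37.1 ± 1.35 scaled TPM (SD, n = 3), while HOXC4, HOXC6, HOXC8 and HOXC9 were higher. On the HOXD side KIAA1715 was higher in Kelly than in BE(2)C (0.93 ± 0.21, 0.00484) and SH-SY5Y (0.79 ± 0.21, 0.0108; 0.08, 0.719 on values as deposited). On the HOXA side JAZF1 was higher in BE(2)C (2.90 ± 0.11, 6.98e-08) and Kelly (1.61 ± 0.11, 2.68e-06) than in SH-SY5Y, and lower in Kelly than in BE(2)C (-1.29 ± 0.11, 1.35e-05). TAX1BP1, on the same side, was lower in BE(2)C than in SH-SY5Y (-1.37 ± 0.12, 9.87e-06) and Kelly (Kelly vs BE(2)C 1.12 ± 0.12, 4.93e-05), and CBX1 on the HOXB side was lower in BE(2)C than in SH-SY5Y (-1.35 ± 0.05, 7.16e-08). Of the 27 flanking genes 26 were in the table and 21 tested, with 5 higher and 12 lower in BE(2)C vs SH-SY5Y, 4 and 7 in Kelly vs SH-SY5Y and 12 and 4 in Kelly vs BE(2)C. The medians were -0.54, -0.24 and 0.36. SNX10 and SKAP2 passed the filter through SH-SY5Y alone and had to differ. Both are among the genes counted as lower in BE(2)C and in Kelly than in SH-SY5Y. On values as deposited the counts were 1 and 15, 1 and 17, and 7 and 4.

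Markers of the lineage were present in all lines. The summed level of 11 sympathoadrenal genes, among them HAND2, GATA3 and DBH, was 7270 to 8340 scaled TPM in Kelly, against 5850 to 6150 in BE(2)C and 5690 to 5930 in SH-SY5Y, with 11, 11 and 10 of them at 1 or more in a library. TH, which encodes tyrosine hydroxylase of catecholamine synthesis, was the marker under 1 in SH-SY5Y, at 0.191 ± 0.176 (SD, n = 3), against 480 ± 81.0 in Kelly and 39.9 ± 4.71 in BE(2)C, and it was higher in both (log2 difference 8.66 ± 0.16, adjusted p = 1.48e-09, and 5.11 ± 0.16, 2.45e-08). HAND1, a transcription factor gene of the lineage, was higher in BE(2)C (2.35 ± 0.07, 1.8e-08) and Kelly (1.96 ± 0.07, 4.64e-08) than in SH-SY5Y. In Kelly vs BE(2)C, TH (3.55 ± 0.16, 3.16e-07) and DBH, the noradrenaline-making enzyme (1.70 ± 0.16, 2.32e-05), were higher in Kelly. Against SH-SY5Y, 5 of the 11 were higher and 5 lower in BE(2)C and 7 and 4 in Kelly, and Kelly vs BE(2)C gave 5 and 3. On values as deposited these counts were 3 and 6, 3 and 6, and 3 and 3. The summed level of 18 markers of leukocytes, epithelium, liver, erythroid cells, fibroblasts and glia was 7.95 to 12.7 in Kelly, against 23.8 to 52.7 in BE(2)C and 29.7 to 30.6 in SH-SY5Y. CD3E, KRT5, KRT14, ALB and HBB were at 0 in all 9 libraries. Of these 18 genes 8 were tested, with 4 higher and 1 lower in BE(2)C vs SH-SY5Y, 0 and 3 in Kelly vs SH-SY5Y and 0 and 4 in Kelly vs BE(2)C, where limma gave 0 and 0 higher at an unadjusted p under 0.05. Among them DCN, a fibroblast proteoglycan gene, was higher in BE(2)C relative to SH-SY5Y (log2 difference 1.86 ± 0.40, adjusted p = 0.00318) and COL1A2, a collagen gene, was lower (-2.51 ± 0.63, 0.00736), with 0, 7.36 and 0.634 scaled TPM in the BE(2)C libraries. DCN was lower in Kelly than in BE(2)C (-2.72 ± 0.40, 0.000411), and COL1A2 was listed at 0 in Kelly. S100B, a glial marker counted as higher in BE(2)C than in both other lines, passed the filter through BE(2)C alone and had to differ. The part of these genes in the HOX differences was not tested.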

How the data were processed

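Polyadenylated RNA of 9 libraries (3 lines, 3 libraries each) was analysed. The deposited table holds log10(TPM + 1) per gene, a scale read from the values: back-transformed, each library sums to 966592 to 980009. HISAT 0.1.6, Salmon 0.3.2 and GRCh38 are listed, without their roles, per the submitters' processing notes; the step from transcripts to genes is not given in the sources examined. TPM keeps no depth, so depth is unknown and no counting interval is given. Of 19837 entries, 92 spike-ins and 11 markers were left out, and 28 entries that carry a date stayed in totals only; the number of unused value columns is 0.

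TPM was rescaled to the gene total and divided by an unweighted trimmed-mean factor (trimming 30% of log ratios and 5% of log levels), giving scaled TPM. Lines were compared with limma 3.58.1 (R 4.3.3), trend method on log2(scaled TPM + 1), all 9 libraries in 1 fit, without a block, keeping the 13076 genes that reached 1 in 3 or more libraries, two-sided. Differences of genes with low values are understated on that scale. Benjamini-Hochberg adjusted p under 0.05 over all 13076 genes counts as called. Of the HOX genes 14 of 39 were tested. A gene that passed the filter through 1 line only, such as HOXC10 and HOXC11, had to differ, so counts of tested members are a description. The test was checked on simulated data. Other scalings, pseudocounts, filters, fits and left-out libraries were tried.

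The rule for named genes accounts for every HOX gene; 1 HOX gene and 4 genes of the lists that it names are not reported here. HOX genes with a mean of 1 or more in a line are described singly, with every library's value. From each list up to 3 called genes with the largest change per comparison and at least 10 in the higher line are named; neighbours of the clusters are named beside them, and UBE2Z, HIBADH, RPS18, RING1, MNX1 and CDX1 after their values were seen. The HOX genes and lists were chosen with earlier results of these data known.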

Additional observations from a re-analysis of the deposited data

How the results depend on the processing

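Each count and log2 difference was recomputed with 4 other scalings, a pseudocount of 0.1, no filter, the 2 lines alone, a replicate block, and without each library in turn. Over the tested HOX genes, 584 recomputed differences stayed on their side of the threshold, 40 lost their call, 4 gained one and 1 called difference changed sign. The log2 difference itself cannot move without a filter, with the 2 lines alone, with the block or without a library of the uncompared line. There only the adjusted p can change, so the 584 overstate how stable the differences are. Of the 584, 12 uncalled values (of 7 differences) changed sign, such as HOXD3 in BE(2)C vs SH-SY5Y, at -0.39 and at 0.03 without replicate 3 of BE(2)C. The called one was HOXC6 in Kelly vs SH-SY5Y, at -0.03 on values as deposited. On values as deposited, the HOX genes called higher numbered 6 in BE(2)C vs SH-SY5Y and 2 in Kelly vs BE(2)C, and those called lower in Kelly vs SH-SY5Y numbered 2. Leaving out 1 library gave 8 to 10 higher and 1 to 2 lower for BE(2)C vs SH-SY5Y, with 1 lower without replicate 3 of BE(2)C or replicate 1 of SH-SY5Y. It gave 7 to 7 and 0 to 0 for Kelly vs SH-SY5Y, and 3 to 4 and 4 to 5 for Kelly vs BE(2)C.

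Correlations between the deviations of same-numbered libraries were small (-0.0545 to 0.0266). Such values cannot exclude a pairing that acts on few genes, and HOXD4 was highest in library 3 of each line. Whether the numbers pair the libraries for single genes was not tested. With the replicate block the counts higher and lower were 9 and 3, 7 and 0, and 4 and 5; HOXD4 passed in BE(2)C vs SH-SY5Y (adjusted p = 0.0447) and Kelly vs BE(2)C (0.00878), and HOXD10 (0.0592) and HOXD8 (0.0755) no longer did. HOXC8 in Kelly vs BE(2)C was not called with a pseudocount of 0.1 (-0.97, 0.123). With that pseudocount HOXC8 reached 6.98 in Kelly vs SH-SY5Y and HOXD13 reached 4.60 in BE(2)C vs SH-SY5Y. Without a filter HOXD1 in BE(2)C vs SH-SY5Y was not called (0.0568). Depth is unknown, so values near 0 have no counting limit. The cause of these shifts was not tested.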
